A study of Mus musculus with 16 samples.

Results

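The constant genes of the T cell receptor were followed in macrophages sorted from mouse lymph nodes. The 7 genes were found by matching the Ensembl identifiers of the count table to the symbols Trac, Trbc1, Trbc2, Trdc, Tcrg-C1, Tcrg-C2 and Tcrg-C4, and they are 7 of 55421 gene rows. All 7 passed the filter on low counts that left 21085 genes for testing. The alpha-beta genes are 3 of them (Trac, Trbc1 and Trbc2) and the gamma-delta genes are 4 (Trdc, Tcrg-C1, Tcrg-C2 and Tcrg-C4).

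RNA sequencing was done on subcapsular sinus macrophages (SSM) and medullary sinus macrophages (MSM) from tumor-draining (tdLN) and non-draining (ndLN) lymph nodes. All groups came from male C57B/6 mice that carried a flank tumor of MOC2 cells, a squamous cell carcinoma line, and nodes were taken 2 weeks after implantation, so that the ndLN groups are not from tumor-free mice. SSMs and MSMs were sorted as live CD45+ CD3- B220- Ly6G- CD11b+ CD169+ cells, SSMs being CD11c- with low side scatter and MSMs CD11c+ with high side scatter. Each of the 4 groups had 2 libraries, each made from pooled nodes of 2 mice. Here they are called pool 1 and pool 2 after the library number in the labels, which 1 label lacks. The labels do not say whether same-numbered libraries of different groups share mice. Each library was sequenced on 2 lanes that were summed. The tumor lay near the inguinal node. The ndLN were contralateral inguinal, axillary and brachial nodes, more per pool than the tdLN. In comparisons of node types, tumor drainage therefore cannot be told apart from the site and number of nodes. Libraries held 42972328 to 48130352 counted reads. Levels are given for each library as CPM, the reads of a gene scaled by the size of its library, after TMM normalization, which corrects for differences in library composition.

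T cells recognise antigen through a receptor of paired chains, either alpha with beta or gamma with delta. Each chain is encoded by variable and joining segments (and, for beta and delta, diversity segments) that are brought together by DNA rearrangement. The joined segments are spliced to a constant gene, so a constant gene of the chain is transcribed whichever segments a cell uses. The receptor reaches the cell surface in a complex with the CD3 chains. Most T cells of lymph nodes carry the alpha-beta receptor, and some innate-like T cells, among them producers of interleukin 17, carry the gamma-delta receptor. Sinus macrophages line the spaces through which lymph passes the node.

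Several of the constant genes are close copies of each other, and the sequences show how far a read can tell them apart. In the first exon, Trbc1 (mm10, chromosome 6, 41538218 to 41539881, plus strand) and Trbc2 (chromosome 6, 41546730 to 41548352, plus strand) differ at 1 of 375 bases. A stretch of 60 coding bases around that position is printed 5′ to 3′ from the GENCODE M21 transcripts on GRCm38, the mm10 build, at chr6:41538447-41538506 and chr6:41546959-41547018, with the differing base in capitals.
Trbc1: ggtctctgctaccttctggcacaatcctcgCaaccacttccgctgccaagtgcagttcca
Trbc2: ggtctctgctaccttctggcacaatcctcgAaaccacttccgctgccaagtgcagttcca

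The gamma constant genes are less alike. Over 330 bases of the first exon, Tcrg-C1 (chromosome 13, 19214103 to 19217024, plus strand) was 97.3% identical to Tcrg-C2 (19304649 to 19307551, minus strand) and 82.1% identical to Tcrg-C4 (19344558 to 19352756, plus strand).

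Of the 50-base windows in the transcripts, 40.5% of Trbc1 and 44.0% of Trbc2 are shared exactly between both genes. For Tcrg-C1 and Tcrg-C2, 34.2% and 25.4% of windows also occur in another gamma constant gene. Neither Trac (chromosome 14, 54220521 to 54224206, plus strand) nor Tcrg-C4 shares a window with any other gene. Trdc (chromosome 14, 54142851 to 54148868, plus strand) shares 5.92% of its windows, and its exons overlap those annotated for Trdv5 and Gm43434. The counting that the paper names leaves out reads with several mapping places, so reads within shared sequence may be missing from both genes. The split of reads between Trbc1 and Trbc2, and between Tcrg-C1 and Tcrg-C2, then rests on the remaining reads. The sum of each pair may be too low, and the share of gamma-delta reads, which uses both pairs, may be shifted. The library kit does not mark strand, and how strand was treated in counting is not given. Reads over the overlapping exons may thus have been added to the Trdc count or left out of it.

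All 7 constant genes were higher in SSMs than in MSMs, in ndLN and in tdLN, and for each of them the lowest SSM library lay above the highest MSM library. Across the 21085 genes tested, 13.8% had every SSM library above every MSM library. The gap between the lowest SSM and the highest MSM library was smallest for Trac, at 3.23-fold, and largest for Tcrg-C1, at 26.9-fold. In these bulk samples, fewer cells of a type and less RNA per cell cannot be told apart.

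**Figure D1:**
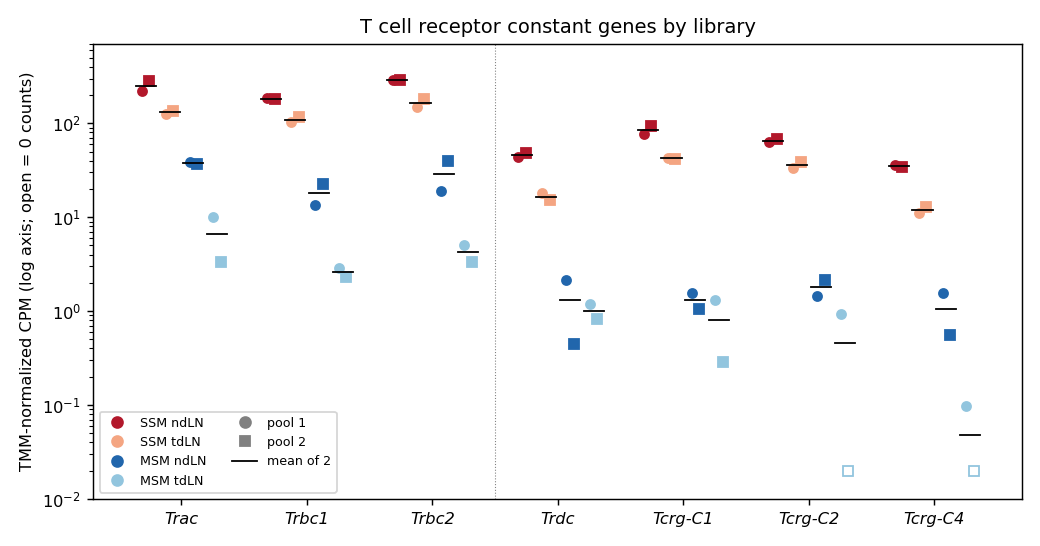
TMM-normalized CPM of each constant gene in each of the 8 libraries, on a log axis, with circles for pool 1, squares for pool 2, and a bar at the mean of the 2 libraries of a group; open symbols mark libraries with 0 counts, drawn at the foot of the axis. The 4 SSM libraries of each gene lie above the 4 MSM libraries, and both SSM libraries from ndLN lie above both from tdLN.

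Trac, the constant gene of the alpha chain, was measured at 219.9 and 281 CPM in SSMs from ndLN (pools 1 and 2) and at 125.6 and 136.3 CPM in SSMs from tdLN. In MSMs it was at 38.9 and 37.2 CPM in ndLN and at 9.99 and 3.32 CPM in tdLN. The 4 groups did not overlap, and MSMs from tdLN stood lowest. SSMs were 6.61-fold above MSMs in ndLN, or 2.72 ± 0.34 (standard error) on the log2 scale, with an adjusted p of 0.00105 by the quasi-likelihood test of edgeR. In tdLN the log2 fold change was 4.33 ± 0.39 (adjusted p = 3.91e-04), and it was 5.37 without MSM pool 1 and 3.64 without MSM pool 2. The ndLN call was lost without MSM pool 1, MSM pool 2 or SSM pool 2 from ndLN, when the adjusted p was 0.0275, 0.0259 and 0.0103.

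The 2 beta constant genes had the same order of groups. Trbc1 was at 185.4 and 180.9 CPM in SSMs from ndLN, 102.6 and 116.8 in SSMs from tdLN, 13.5 and 22.6 in MSMs from ndLN and 2.91 and 2.33 in MSMs from tdLN. Trbc2 was at 289 and 286.5 CPM, 149.9 and 181.9 CPM, 18.8 and 39.3 CPM, and 5.09 and 3.37 CPM in the same order. For both genes the groups did not overlap, and MSM pool 2 from ndLN stood above pool 1. The log2 fold change of SSMs over MSMs in ndLN was 3.36 ± 0.23 (standard error) for Trbc1 and 3.34 ± 0.30 for Trbc2 (adjusted p = 7.1e-05 and 2.47e-04, edgeR), and that of Trbc2 was 3.94 without MSM pool 2. In tdLN it was 5.39 ± 0.28 and 5.29 ± 0.36 (adjusted p = 6.31e-05 and 1.26e-04). Trbc1 took 36.4% to 41.8% of the reads of both beta genes in MSM libraries, a range that holds the 38.7% to 40.6% of SSM libraries.

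Trdc, the only constant gene of the delta chain, was measured at 44.3 and 48.2 CPM in SSMs from ndLN and at 18 and 15.2 CPM in SSMs from tdLN. In MSMs it was at 2.15 and 0.446 CPM in ndLN and at 1.19 and 0.815 CPM in tdLN, from 20 to 84 reads per library. The SSM groups were apart from each other and from MSMs, whereas the MSM groups overlapped. The log2 fold change of SSMs over MSMs was 5.22 ± 0.41 in ndLN and 4.06 ± 0.45 in tdLN (adjusted p = 1.29e-04 and 9.05e-04, edgeR). The ndLN value was 6.65 without MSM pool 1 and 4.47 without MSM pool 2. The tdLN call was lost when any 1 of the 4 tdLN libraries was left out, with an adjusted p from 0.0124 to 0.0195.

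The gamma constant genes were at most 2.14 CPM in any MSM library. Tcrg-C1 was at 76.6 and 93.5 CPM in SSMs from ndLN, 43.2 and 42.1 in SSMs from tdLN, 1.56 and 1.05 in MSMs from ndLN and 1.31 and 0.286 in MSMs from tdLN. Tcrg-C2 was at 62.9 and 67.7 CPM, 33.6 and 38.4 CPM, 1.44 and 2.14 CPM, and 0.921 and 0 CPM in the same order. Tcrg-C1 overlapped between the MSM groups, and MSM pool 2 from tdLN, which held 13 reads of Tcrg-C1 and none of Tcrg-C2, was the lowest library for both. Tcrg-C4 was at 35.8 and 34.4 CPM, 11.1 and 12.8 CPM, 1.56 and 0.557 CPM, and 0.097 and 0 CPM. It rested on 4 reads in MSM pool 1 and 0 reads in pool 2 from tdLN, and a count of 0 in that library allows up to 0.066 CPM (3 counts, counting error only).

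Fold changes of SSMs over MSMs in ndLN were 65.8 for Tcrg-C1, 36.2 for Tcrg-C2 and 34 for Tcrg-C4, with log2 standard errors of 0.36, 0.40 and 0.38 (adjusted p = 4.29e-05, 1.19e-04 and 5.63e-05, edgeR). In tdLN the log2 fold changes were 5.78 ± 0.40, 6.35 ± 0.52 and 7.93 ± 0.72 (adjusted p = 1.37e-04, 2.36e-04 and 2.29e-04). These tdLN estimates rest on few MSM reads. Without MSM pool 2 from tdLN they were 4.99, 5.19 and 6.94, and without pool 1 they were 7.25, 13.8 and 12.1, the last pair set against a library with 0 reads. In ndLN, the log2 fold change of Tcrg-C4 was 5.99 without MSM pool 1 and 4.47 without MSM pool 2. Tcrg-C3, a further gamma constant gene outside the 7, had 51 and 88 reads in SSMs from ndLN, 45 and 51 in SSMs from tdLN and 0 in every MSM library, so that the ratio to a floor of 3 counts per library is at least 17.66-fold in ndLN and at least 14.98-fold in tdLN.

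With both cut-offs (adjusted p under 0.01 and a mean normalized count over 100), 7 of 7 constant genes were called higher in SSMs in ndLN, where 6.01% of all genes tested were called higher and 12.1% were called in either direction. In tdLN it was again 7 of 7, against 5.16% called higher and 8.69% called in either direction. The median log2 fold change of the 7 genes was 5.09 in ndLN and 5.39 in tdLN, beside medians of 0.09 and 0.02 over all genes tested. In ndLN the median was 3.34 for the 3 alpha-beta genes and 5.20 for the 4 gamma-delta genes. In tdLN the medians were 5.29 and 6.06. The difference between the chains was not tested.

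**Figure D2:**
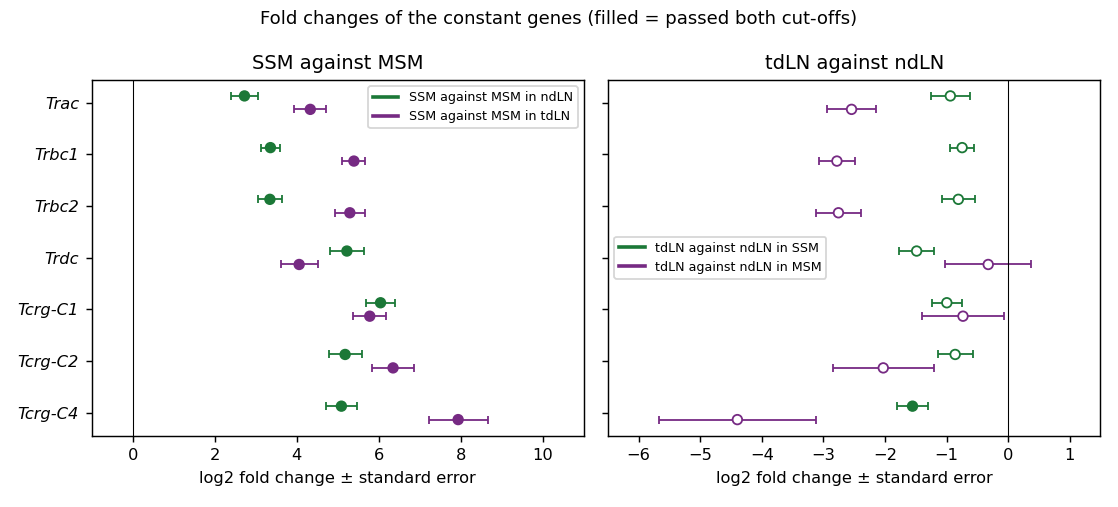
Log2 fold change with its standard error for each constant gene, SSMs against MSMs on the left and tdLN against ndLN on the right; filled symbols passed both cut-offs. The left panel runs from 2.72 to 7.93 with every symbol filled, and in the right panel only Tcrg-C4 in SSMs is filled.

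Per kilobase of exon, Trbc2 was the most abundant constant gene in SSMs from ndLN at 416 CPM per kb, followed by Trac at 268, Trbc1 at 245, Tcrg-C1 at 92.1, Tcrg-C2 at 71.5, Tcrg-C4 at 35.6 and Trdc at 12. In SSMs from tdLN the order was the same except that Trbc1, at 146 CPM per kb, and Trac, at 140, changed places, and these neighbours did not differ beyond the spread between pools. In SSMs from ndLN, Trac and Trbc1 likewise lay within that spread. In MSMs from ndLN, Trbc2 (42 CPM per kb), Trac (40.7) and Trbc1 (24.1) came first, and the gamma-delta genes lay between 0.336 and 1.96 CPM per kb. In MSMs from tdLN the 3 alpha-beta genes were at 3.50 to 7.12 CPM per kb and the gamma-delta genes at 0.049 to 0.863. Trbc2 overlapped both other alpha-beta genes between pools in MSMs from ndLN, where Trac lay above Trbc1 in both libraries, and Trac overlapped both others in MSMs from tdLN, where Trbc2 lay above Trbc1 in both libraries. The annotated exon length of Trdc, 3865 bases against 692 to 985 for the other members, lowers its value on this scale. The scale was not corrected for the sequence that Trbc1 and Trbc2, and Tcrg-C1 and Tcrg-C2, share with other genes, from which reads may be left out of the counts, so the order of these genes against Trac and Tcrg-C4 is less certain than their lengths alone would make it.

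Together the 7 genes made up 0.103% and 0.114% of all reads in SSMs from ndLN, 0.0468% and 0.0547% in SSMs from tdLN, 0.00703% and 0.00997% in MSMs from ndLN, and 0.00206% and 0.000956% in MSMs from tdLN. Gamma-delta genes took 24% and 24.6% of these reads in SSMs from ndLN, with exact binomial 95% intervals of 23.7% to 24.4% and 24.2% to 25%. In SSMs from tdLN the share was 21.9% (21.3% to 22.4%) and 20% (19.5% to 20.5%). In MSMs it was 8.62% (7.65% to 9.67%) and 4.06% (3.51% to 4.66%) in ndLN, and 16.4% (14% to 18.9%) and 10.9% (8.18% to 14.1%) in tdLN. Every SSM library therefore had a larger gamma-delta share than any MSM library. These intervals cover counting error only, and reads without molecular identifiers are not independent molecules.

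Trdc over the sum of Trdc and Trac, a measure that uses neither of the duplicated gene pairs, was 16.8% and 14.6% in SSMs from ndLN and 12.6% and 10.1% in SSMs from tdLN. In MSMs it was 5.25% and 1.18% in ndLN and 10.6% and 19.7% in tdLN. On this measure the SSM groups kept their order, but MSM pool 2 from tdLN, with 37 Trdc and 151 Trac reads, had the highest value of the 8 libraries. The larger gamma-delta share of SSMs thus held on this measure in ndLN and not in tdLN.

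Among the gamma constant genes, SSM libraries had Tcrg-C1 at 43.7% to 49.1% of the reads, Tcrg-C2 at 34.6% to 41.2% and Tcrg-C4 at 12.6% to 20.4%. Tcrg-C4 took 20.4% and 17.6% in SSMs from ndLN and 12.6% and 13.7% in SSMs from tdLN, so the node types did not overlap. In MSMs the same split rested on 13 to 178 reads per library and ranged from 0% to 34.3% for Tcrg-C4.

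**Figure D3:**
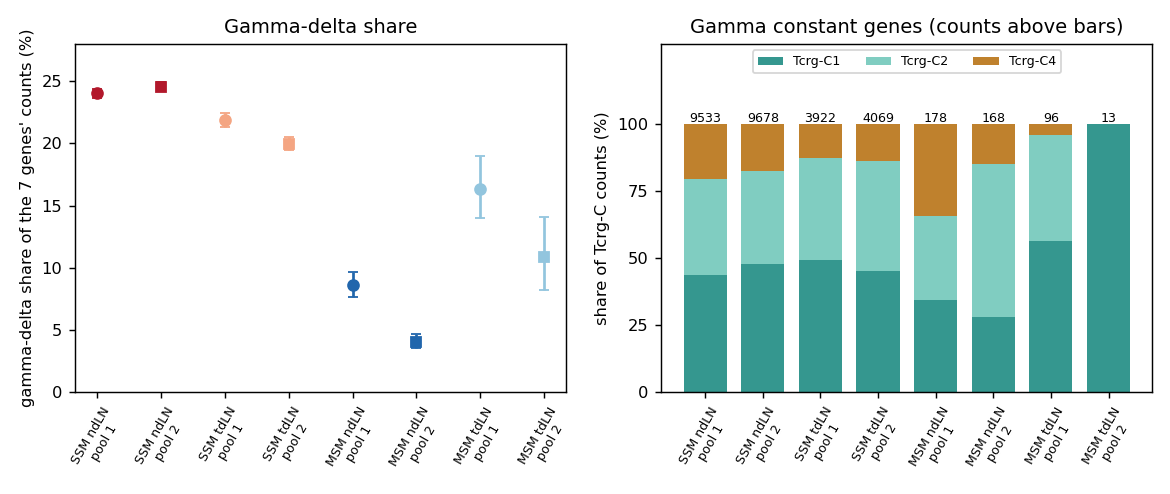
Left, the share of gamma-delta genes among the reads of the 7 constant genes in each library, with exact binomial 95% intervals; right, the split of gamma constant reads between Tcrg-C1, Tcrg-C2 and Tcrg-C4, with the number of reads above each bar. The SSM libraries lie between 20% and 24.6% on the left and the MSM libraries between 4.06% and 16.4%; on the right, the bars of the MSM libraries rest on 178 reads or fewer.

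The next comparison was between node types within SSMs. All 7 genes had lower levels in both tdLN libraries than in both ndLN libraries, an order that 26.3% of all genes tested showed. Tcrg-C4 passed both cut-offs, with a log2 fold change of -1.55 ± 0.26 (adjusted p = 0.00947, edgeR), a level 2.94-fold lower in tdLN. This 1 call of 7 stands beside 1.05% of all genes called lower and 3.03% called in either direction. It was lost with every single library left out, with an adjusted p from 0.0135 to 0.188, and with no filter on low counts (adjusted p = 0.0120).

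The other gamma-delta genes had log2 fold changes of -1.49 ± 0.28 for Trdc (adjusted p = 0.0189), -0.996 ± 0.24 for Tcrg-C1 (adjusted p = 0.0430) and -0.86 ± 0.28 for Tcrg-C2 (adjusted p = 0.112) by edgeR. The alpha-beta genes were at -0.94 ± 0.31 for Trac, -0.75 ± 0.20 for Trbc1 and -0.81 ± 0.27 for Trbc2, with adjusted p-values of 0.119, 0.0613 and 0.117. None of these 6 passed. All 7 had an unadjusted p under 0.05, and the median of the 7 was -0.94 beside -0.04 over all genes tested. Of 8 macrophage markers, 5 were called higher in SSMs from tdLN (Csf1r, Siglec1, Cd68, Lyz2 and Mertk), whereas Adgre1 (log2 fold change 0.95), Itgam (0.80) and Marco (-0.60) did not pass (adjusted p = 0.124, 0.0367 and 0.260). The summed level of the 8 markers was 5923 to 9109 CPM in ndLN and 15240 to 22300 CPM in tdLN, most of it from Lyz2, at 5044 to 7940 and 12930 to 19310 CPM. The part of these markers in the lower levels of receptor genes was not tested.

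Within MSMs, none of the 7 genes passed both cut-offs between tdLN and ndLN by edgeR, although 5 had an unadjusted p under 0.05 and a DESeq2 Wald test called 4 of them lower (Trac, Trbc1, Trbc2 and Tcrg-C4). Over all genes tested, 0.0237% were called in either direction by edgeR and 1.56% were called lower by DESeq2. The alpha-beta genes had log2 fold changes of -2.54 ± 0.39 for Trac, -2.78 ± 0.30 for Trbc1 and -2.76 ± 0.37 for Trbc2 (adjusted p = 0.0532, 0.0183 and 0.0316). Both tdLN libraries lay below both ndLN libraries for these genes and for Tcrg-C2 and Tcrg-C4, 5 of 7, an order that 18.1% of all genes tested showed. Trdc was at -0.32 ± 0.70 and Tcrg-C1 at -0.73 ± 0.67, with overlapping groups, and their sign turned when 1 MSM library was left out.

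The interaction of subset and node, which asks whether the node difference is the same in SSMs and MSMs, was called for 0 of the 7 genes by edgeR, beside 0.0379% of all genes tested. An unadjusted p under 0.05 was found for Trac, Trbc1 and Trbc2, with interaction terms of 1.60 ± 0.50, 2.03 ± 0.37 and 1.95 ± 0.46 on the log2 scale and adjusted p-values of 0.228, 0.0589 and 0.120. The DESeq2 Wald test called Trbc1 and Trbc2, beside 3.35% of all genes. For the gamma-delta genes the interaction terms ran from -1.16 (Trdc) to 2.84 (Tcrg-C4), with standard errors of 0.73 to 1.49.

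The rearranging segments were counted next, as rows of their own in the table. Beta variable segments (Trbv, 35 rows, 23 with reads) summed to 6400 and 5862 reads in SSMs from ndLN, 3174 and 3391 in SSMs from tdLN, 405 and 905 in MSMs from ndLN and 131 and 72 in MSMs from tdLN. Alpha variable segments (Trav, 128 rows, 72 with reads) summed to 1263 and 1349, 506 and 555, 233 and 306, and 64 and 10 reads. Delta variable segments (Trdv, 6 rows) summed to 916 and 881, 248 and 381, 32 and 15, and 3 and 4 reads. In each of the 3 families every SSM library held more reads than any MSM library, as did the 6 gamma variable segments (Tcrg-V), with 340 to 932 reads in SSMs and 0 to 20 in MSMs. Exact 50-base windows shared with another gene make up 62.7% of Trav sequence, 25.9% of Trdv, 7.44% of Tcrg-V and 6.71% of Trbv, so the families are not equally countable.

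Segments called higher in SSMs in ndLN were 4 of 21 tested Trbv, 2 of 14 Trbj and 1 of 4 Trdv. In tdLN the counts were 4, 2 and 1 again. Of all genes tested, 6.01% were called higher in SSMs in ndLN and 5.16% in tdLN, and these shares also apply to the gene lists below. No tested Trav, Traj or Tcrg-V segment was called by edgeR or DESeq2 in these comparisons, where the cut-offs also ask for a mean normalized count over 100. At an unadjusted p under 0.05 there were 13 of 58 Trav, 2 of 20 Traj and 5 of 6 Tcrg-V segments in ndLN, and 9, 0 and 4 in tdLN. Trbv13-3 was the called variable segment with the largest fold among the 3 most abundant of its family, with 1241 and 1140 reads in SSMs from ndLN, 558 and 554 in SSMs from tdLN, 32 and 50 in MSMs from ndLN and 8 and 1 in MSMs from tdLN. Its log2 fold change was 4.55 ± 0.33 in ndLN and 6.89 ± 0.54 in tdLN (adjusted p = 3.47e-05 and 8.34e-05, edgeR). Trbv13-2 and Trbv19 were called with 3.44 ± 0.38 and 3.10 ± 0.35 in ndLN. The joining segments Trbj1-1 and Trbj1-2, which lie between Trbd1 and Trbc1, were called with 4.57 ± 0.37 and 4.68 ± 0.40.

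Trdv4 was the called delta variable segment. It had 732 and 767 reads in SSMs from ndLN, 195 and 280 in SSMs from tdLN, 23 and 0 in MSMs from ndLN and 3 and 0 in MSMs from tdLN. Its log2 fold change of SSMs over MSMs in ndLN was 5.71 ± 0.64 (adjusted p = 4.28e-04, edgeR). Tcrg-V4, which lies upstream of Tcrg-C1 on chromosome 13 (19184974 to 19185506), was the most abundant gamma variable segment, with 465 and 515, 268 and 257, 14 and 4, and 12 and 0 reads. Tcrg-V6 (19190356 to 19190929) had 153 and 136 reads in SSMs from ndLN but 21 and 5 in SSMs from tdLN, a log2 fold change of -3.23 ± 0.70 (adjusted p = 0.0169, edgeR), which did not pass. Tcrg-V1, with 126 and 110 against 71 and 46 reads, had -0.78 ± 0.55 (adjusted p = 0.449).

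**Figure D4:**
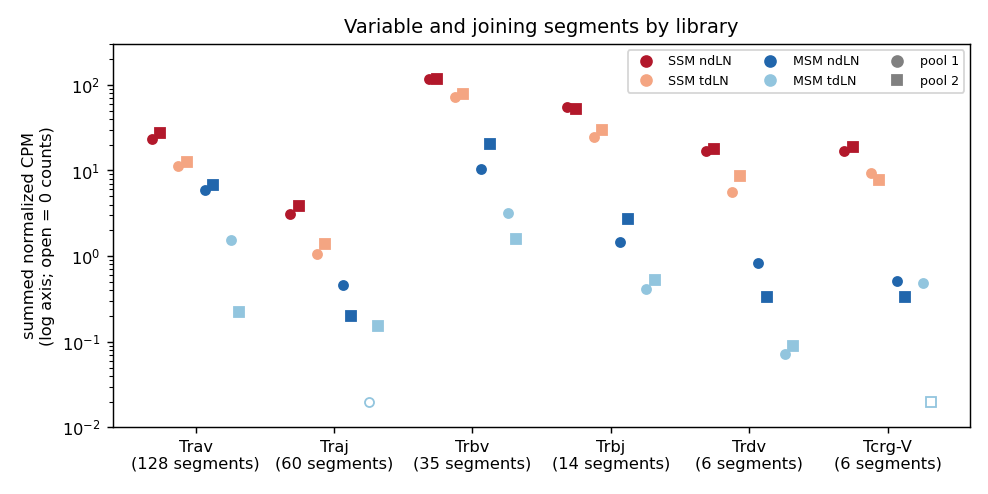
Summed normalized CPM of the segments of 6 families in each library, on a log axis, with circles for pool 1, squares for pool 2 and open symbols for 0 counts. The 4 SSM libraries lie above the 4 MSM libraries in each family.

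The CD3 chains, which carry the receptor to the cell surface, followed the constant genes although the sort took CD3- cells. Cd3d, Cd3e, Cd3g and Cd247 summed to 527.9 to 554.5 CPM in SSMs from ndLN, 293.7 to 342.1 in SSMs from tdLN, 52.8 to 64.9 in MSMs from ndLN and 10 to 16.3 in MSMs from tdLN. All 4 were called higher in SSMs in ndLN (median log2 fold change 3.31) and in tdLN (median 4.68), and 0 were called by edgeR between node types, although all 4 had an unadjusted p under 0.05 in SSMs and in MSMs and DESeq2 called 2 and 4 of them. Cd3e, for one, was at 150.8 and 143.1 CPM in SSMs from ndLN and at 12.3 and 16.3 CPM in MSMs from ndLN.

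The coreceptors did not move as 1 group. Cd4, which helps T cells that see class II molecules and is also found on some myeloid cells, was at 404.1 and 475 CPM in SSMs from ndLN, 91.7 and 59 in SSMs from tdLN, 87.8 and 115.5 in MSMs from ndLN and 88 and 58.4 in MSMs from tdLN. It was called higher in SSMs in ndLN (log2 fold change 2.11 ± 0.28, adjusted p = 0.00133, edgeR), and it fell in SSMs from tdLN by 2.56 on the log2 scale (standard error 0.28, adjusted p = 0.00265). Cd8b1, the beta chain of the T cell form of CD8, was called higher in SSMs in both node types and fell by 1.37 in SSMs from tdLN (adjusted p = 0.00975). Cd8a, which some dendritic cells also express, was lower in SSMs, at 23 to 25.8 CPM in ndLN against 386.5 and 605.1 in MSMs (log2 fold change -4.34 ± 0.27, adjusted p = 4.87e-05). Genes of receptor assembly in the thymus, Ptcra and Rag2, had 0 reads in every library, and Rag1 and Dntt stayed under 0.6 CPM in each.

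A list of 14 genes of gamma-delta and other innate-like T cells was followed, several of which innate lymphoid cells also express. Of these, 13 were called higher in SSMs in ndLN and 13 in tdLN, Sox13 being the exception in both. Not every gene of the list is particular to such cells. Ifngr1, among the 13, was at 1461 to 2254 CPM in SSM libraries and 691.6 to 1066 in MSM libraries. Its log2 fold change was 1.04 ± 0.12 in ndLN and 1.01 ± 0.12 in tdLN. Il17a, which encodes a cytokine that some innate-like T cells secrete, was at 13.2 and 14 CPM in SSMs from ndLN. It was at 6.79 and 4.22 CPM in SSMs from tdLN and at 0.744 CPM or 0 in MSMs. In the node comparison within SSMs, 4 of the 14 were called lower in tdLN, beside 1.05% of all genes tested. They were Il23r (log2 fold change -1.72 ± 0.25), Il17f (-2.31 ± 0.33), Il7r (-1.23 ± 0.13) and Ccr6 (-1.75 ± 0.18), with adjusted p-values of 0.00758, 0.00458, 0.00261 and 0.00224 by edgeR.

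The genes whose pattern over the libraries most resembled the constant genes were found among 9770 genes with a mean of at least 5 CPM. The measure was the Pearson correlation of log values over the 8 libraries, which are 4 groups of 2. It does not compare the size of the differences. For the alpha-beta sum they were Cd27, Bcl11b, Gimap6, Prkcq and Cd2, with r of 0.997 to 0.998. For the gamma-delta sum they included Sdc1, Lpxn, Cd40lg and Dgkz, with r of 0.996 to 0.997. The sums of both chains had r of 0.952 with each other. Cd27 was at 116 and 121 CPM in SSMs from ndLN and at 10.9 and 15.6 in MSMs from ndLN. Sdc1 was at 333 and 474 CPM in SSMs from ndLN and at 13.2 and 13.1 in MSMs from ndLN. Lpxn (229 and 242.9 against 94.65 and 90.46 CPM) and Dgkz (156 and 165.2 against 71.09 and 58.19) differed less between these groups. The gamma-delta sum itself was at 219.6 and 243.8 against 6.717 and 4.19 CPM.

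The labelled cell types were set against their markers. Lyz2 was the most abundant of the 8 macrophage markers, at 3998 to 19310 CPM in the 8 libraries. Siglec1, which encodes the sort marker CD169, was low, at 8.47 and 15.1 CPM in SSMs from ndLN, 59.2 and 70 in SSMs from tdLN, 0.795 and 1.63 in MSMs from ndLN and 5.64 and 5.96 in MSMs from tdLN. Itgam, which encodes the sort marker CD11b, was at 54.6 to 123.7 CPM in SSM libraries, 9.64 to 20.4 in MSM libraries. Mertk was at 0.129 and 0.465 CPM in SSMs from ndLN and at 14.1 and 8.21 in SSMs from tdLN. In MSMs it was at 3.82 and 2.7 CPM in ndLN and 7.27 and 5.06 in tdLN. Csf1r was at 558.9 to 1887 CPM in SSM libraries and 194 to 405.2 in MSM libraries. In the same order, Cd68 was at 134.4 to 590.8 and 326 to 384.7 CPM, and Adgre1 at 108.8 to 293.7 and 60.85 to 115.6. Marco was at 7.451 to 14.86 CPM in SSM libraries and 4.381 to 11.57 in MSM libraries. It was not called between the subsets in either node type. In ndLN, 3 of the 8 were called higher in SSMs and 2 lower (Cd68 and Mertk). In tdLN, 4 were called higher and 0 lower. Siglec1 and Itgam were both lowest in MSMs from ndLN.

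Markers of other lymphocytes also stood beside the constant genes. Of 7 NK cell markers, 6 were called higher in SSMs in each node type. The 7 summed to 1750 to 2808 CPM in SSM libraries, against 207.1 to 307.8 in MSM libraries. Most of the MSM sum was Klrk1, at 182.7 to 264.3 CPM, the marker that was not called in either node type. Of 9 innate lymphoid cell markers, 7 were called higher in SSMs in ndLN, with a summed level of 1452 to 1799 CPM there against 664.9 to 683.2 in MSMs, and 3 fell in SSMs from tdLN. In tdLN, 4 of the 9 were called higher and 1 lower in SSMs. Most of the sum in MSMs from ndLN was Kit, at 606 and 614.5 CPM. Kit was at 338.9 and 481.3 CPM in SSMs from ndLN and was not called between the subsets there. Of the 11 T cell markers, which include the CD3 chains and coreceptors, 9 were called higher and Cd8a lower in ndLN, 8 and 1 in tdLN, and 3 fell in SSMs from tdLN (Cd4, Cd8b1 and Zap70). Of 6 basophil and mast cell markers, 4 were called higher in SSMs in each node type. The 6 summed to 242.6 to 1510 CPM in SSM libraries and 34.8 to 70.4 in MSM libraries. Nearly all of the MSM sum was Hdc, at 34.6 to 69.55 CPM. Of 7 dendritic cell markers, 5 were called lower in SSMs in each node type, and their sum was 135.3 to 255.2 CPM in SSM libraries, 1968 to 2337 in MSM libraries. Neutrophil markers, 5 in all, summed to between 7.39 and 213.9 CPM in SSM libraries, to at most 1.72 in MSM libraries, and 2 were called higher in SSMs in tdLN. B cell markers, 6 in all, lay at 18.7 to 43.4 CPM in every library, and edgeR called 0 in either subset comparison (3 in ndLN and 2 in tdLN at an unadjusted p under 0.05, 1 and 2 by DESeq2). The part of these cell types in the receptor reads was not tested.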

How the data were processed

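Libraries came from the SMART-Seq v4 kit, which does not mark strand, and per the labels the authors used bcl2fastq 2.20.0.422, Trimmomatic 0.36 and STAR 2.5.3a with GRCm38 (mm10). The values are raw counts of reads per gene, and the authors deposited them without normalization. The paper's sample matrix names STAR's own gene tables, which leave out reads with several mapping places. The annotation release is not given in the sources used here. Symbols, exons and sequences were taken from GENCODE M21, whose identifiers match 55240 rows. The table has 16 columns, the 2 lanes of 8 libraries, with 0 columns unused, and 2 rows of added sequences (6 counts in all) were left out. Lanes of 1 library agreed within sampling noise (chi-square per degree of freedom 0.955 to 1.02, against 52.8 to 95.6 between libraries of a group) and were summed. The p-values measure the spread between libraries of pooled mice.

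Genes with a total of at least 10 counts in at least 2 samples were fitted over the 8 libraries with group and pool in edgeR 4.0.16 (R 4.3.3), with TMM factors of 0.902 to 1.15 and the quasi-likelihood test with Benjamini-Hochberg adjustment over 21085 genes. A gene was called at an adjusted p under 0.01 and a mean normalized count over 100 on the scale of 1 lane. A standard error is the log2 fold change over the square root of F. The paper models Pool and counts 4 pools as biological replicates, and its sample matrix gives each lane a pool number of its own. The block used here is another factor, the library number 1 or 2 in the labels, since lanes of 1 library are not separate replicates. The label of 1 SSM library from tdLN carries no number. It was taken as pool 1 because the other SSM library from tdLN is numbered 2. In the deviations from the group means, same-numbered libraries had an r of -0.193 to 0.148 across genes.

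Scripts were tested on simulated data. Alternatives were no block, DESeq2 1.42.0 (Wald test, and its size factors), no filter, other cut-offs and each library left out. The earlier (legacy) quasi-likelihood fit was added after seeing the data. Shares have exact binomial 95% intervals, computed in Python 3.11.15 with scipy 1.17.1. The genes named are the 7 members, the marker and pathway lists, Tcrg-C3, up to 3 segments per family by mean CPM and the 5 genes most like each chain. The values of 1 gene that the rule names and some sequences are not reported here. The members and lists were chosen with earlier results of these data known.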

Additional observations from a re-analysis of the deposited data

How the results depend on the processing

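Without the replicate block, the numbers of constant genes called were unchanged at 7, 7, 1, 0 and 0 for the subset comparison in ndLN and tdLN, the node comparison in SSMs and MSMs, and the interaction, and the block changed no call of a member. In SSMs, the 1 gene called between node types became 0 without the low-count filter, 0 under the legacy fit, 0 to 0 with single libraries left out, 2 under the DESeq2 Wald test and 3 at an adjusted p of 0.05. In MSMs, 0 became 4 under DESeq2, 1 under the legacy fit and 2 at 0.05, and for the interaction 0 became 2 under DESeq2. With single libraries left out, 6 to 7 genes were called between SSMs and MSMs in each node type. DESeq2 called 6 in ndLN, where Tcrg-C2 had an adjusted p of 0.0127. DESeq2's size factors changed no call of a member and moved the median log2 fold change of all genes in ndLN to 0.13. The mean gamma-delta share of 24.3% in SSMs from ndLN was 15.7% from Trdc and Trac alone and 18.5% per kilobase, 20.9% in SSMs from tdLN was 11.3% and 16.3%, and 13.6% in MSMs from tdLN was 7.87% per kilobase. Values for single genes turned sign in 5 of 525 cases, none of them called. With single libraries left out, the log2 fold change between MSM node types ran from -1.07 to 1.11 for Trdc (above 0 without pool 1 from ndLN) and from -2.20 to 0.060 for Tcrg-C1 (above 0 without pool 2 from tdLN), and the interaction term of Tcrg-C1 ran from -1.05 to 1.21 (above 0 without MSM pool 2 from ndLN, MSM pool 1 from tdLN or SSM pool 2 from ndLN). The causes of these changes were not tested. Gamma-delta genes in MSMs rest on 0 to 96 reads per gene and library, which limits every fold change that uses them, and 2 libraries per group limit the rest.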
